A study of Mus musculus with 17 samples.

Results

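The genes described here are 8 members of the WNT signalling system that are expressed in the ovarian follicle: the ligands Wnt4 and Wnt5a, the frizzled receptors Fzd1 and Fzd4, the R-spondin receptor Lgr4, the secreted inhibitor Sfrp4, the transducer Ctnnb1 and the feedback gene Axin2. They were chosen by gene symbol, with earlier results of these data known, and all 8 were found among the 25198 rows of the count table. The samples were mouse ovarian follicles of the CD1 strain at the antral stage, from animals 16 days old, grown for 8 days in eIVFG, a system in which each follicle is encapsulated and grown outside the animal. Each sample pooled 3 follicles. The Tyrphostin group (6 libraries) was exposed for 4 h to hCG, the gonadotropin used to start ovulation in culture, together with 10 µM Tyrphostin AG1478 in DMSO. AG1478 is an inhibitor of the EGF receptor kinase. The Control group held 11 libraries. The treatment text is identical for both groups, so it does not say whether Control follicles received hCG and the vehicle. Batch 1 held 6 Control and 3 Tyrphostin libraries, and batch 2 held 5 and 3. The library names put the Control libraries into 5 numbered sets of 1 to 3 libraries, sets 1 and 2 in batch 1 and sets 4, 5 and 6 in batch 2, and the labels do not say what a set shares. The Control libraries are counted singly here (n = 11), and values with each set summed are given where they change a call. No label says which libraries or sets came from separate animals or cultures, so p-values measure the spread between these libraries, which may in part be technical.

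WNT proteins are secreted ligands that bind frizzled receptors and the co-receptors LRP5 and LRP6. In the canonical branch this stops a destruction complex built on AXIN and APC from degrading beta-catenin, the product of Ctnnb1, which then acts with TCF and LEF factors on target genes. Axin2 is one of those targets and feeds back on the pathway. R-spondins and their LGR receptors keep frizzled receptors at the cell surface, and secreted frizzled-related proteins such as SFRP4 bind WNT ligands outside the cell. In the ovary WNT4 is needed for female gonad development, and Fzd4, Fzd1 and Sfrp4 have been studied in granulosa cells and the corpus luteum around ovulation.

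Total counts per library ran from 1820545 to 8291024 in Control and from 3077632 to 7451417 in Tyrphostin libraries. Levels are given as CPM (counts scaled to library size with TMM factors), and 3 counts corresponded to between 0.336 and 1.64 CPM. These libraries hold whole follicles, and in such bulk RNA a smaller number of expressing cells and less RNA per cell cannot be told apart. The 8 granulosa markers summed to 39000 to 52800 CPM in Control and 35100 to 51900 CPM in Tyrphostin libraries. Nearly all of this was Inha, with means of 44600 and 43000 CPM, so the sum says little about the other markers. Foxl2 averaged 0.592 and 1.42 CPM. Of the 7 tested, Fshr, Nr5a2, Cyp19a1 and Hsd17b1 were called higher. The 9 theca and stroma markers summed to 269 to 2160 CPM in Control and 275 to 3090 CPM in Tyrphostin libraries, and were highest in Tyrphostin 5, Control 7 and Control 8. The 5 immune markers were highest in the same 3 libraries, at 855, 301 and 462 CPM against at most 119 CPM elsewhere. Among them Lyz2 had the highest mean, 92.8 CPM in Control and 158 CPM in Tyrphostin libraries. The 9 oocyte markers summed to 15.6 to 83.2 CPM in Control and 20.2 to 194 CPM in Tyrphostin libraries, the 5 endothelial markers to 8.54 to 88.7 and 8.77 to 32.9 CPM, and the 5 surface epithelium markers to 0.112 to 2.7 and 0 to 10.3 CPM, with Upk1b at 0 throughout. The part of these other cell types in the results below was not tested, and the results are also given without those 3 libraries where that changed a call.

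Between genes, levels were compared per kilobase of merged exons. Sfrp4 stood far above the rest, with a mean of 1688 ± 836 CPM per kilobase under Control (SD, n = 11) and 644 ± 390 under Tyrphostin (SD, n = 6). It was the 21st gene of the whole table by mean CPM. Ctnnb1 followed at 17.5 ± 4.49 (SD, n = 11) and 22.3 ± 6.7 (SD, n = 6) CPM per kilobase, and Sfrp4 exceeded it in 16 of 17 libraries. Ctnnb1 exceeded Lgr4 in 17 of 17. Lgr4, Fzd1 and Fzd4 came next, with means over all libraries of 3.55, 2.16 and 0.948 CPM per kilobase. Lgr4 was above Fzd1 in 13 of 17 libraries, Fzd1 above Fzd4 in 14, and Fzd4 above Wnt5a in 13. Wnt5a, Wnt4 and Axin2 lay together at the bottom, with means of 0.434, 0.392 and 0.357 CPM per kilobase. Wnt5a exceeded Wnt4 in 10 of 17 libraries and Wnt4 exceeded Axin2 in 8, so the order of these neighbours was within their spread.

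**Figure D1:**
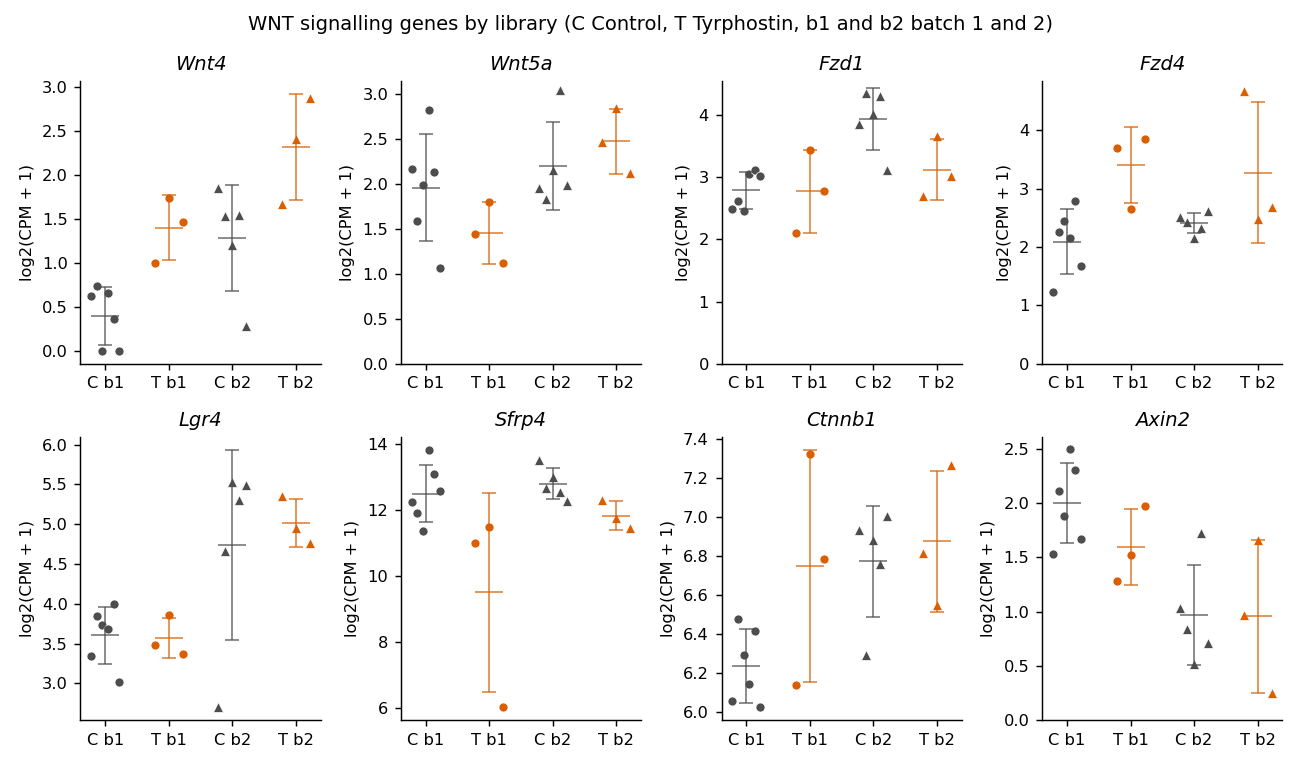
Level of each of the 8 genes in every library, as log2(CPM + 1) on an axis of its own range. Circles are batch 1 and triangles batch 2, grey Control (6 and 5 libraries) and orange Tyrphostin (3 and 3 libraries), with bars at the mean ± SD on that scale; Sfrp4 in Tyrphostin 3 lies at 63.6 CPM, far below every other library.

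The main comparison set Tyrphostin against Control libraries for each transcript in a model that also held batch, and its result is given as a log2 ratio, the fitted log2 fold change. Of the 8 genes, 7 had enough counts to be tested. Only Fzd4 passed the threshold of 0.05 after adjustment (quasi-likelihood test of edgeR); at an unadjusted p under 0.05 there were 2, Fzd4 and Sfrp4, and DESeq2 called the same pair, where it called 13.7% of all genes. Over all 9603 genes tested, 10.6% were called (4.35% higher and 6.25% lower) and 23.7% had an unadjusted p under 0.05, so the members' share was close to the background. The share of all calls that were higher was 41.1% on the TMM scale and 64.4% with total counts, where the median of all genes moved to 0.14 on the log2 scale, and changes are given relative to the TMM scale. The median log2 ratio of the 7 genes was -0.24, against a median of 5.42e-05 over all genes tested, with 2 positive and 5 negative values.

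Among the ligands, Wnt4 (ENSMUSG00000036856; GRCm38 chromosome 4, 137277489 to 137299726, plus strand) was rare and lay below the filter on low counts. In batch 1 the Control libraries held 0 to 3 counts each (highest 0.667 CPM), and the Tyrphostin libraries 7, 15 and 9 counts (1, 2.33 and 1.76 CPM). In batch 2 the Control libraries reached 2.62, 1.9, 1.3, 1.92 and 0.213 CPM, and the Tyrphostin libraries 2.19, 4.31 and 6.34 CPM. All 3 Tyrphostin libraries of batch 1 were above every Control library of that batch, a pattern seen in 5.04% of all genes tested in batch 1, and in batch 2 it held for 2 of 3. For 1.12% of all genes it held for every library of both batches, and for 0 of the 8 genes. Over both batches Wnt4 averaged 0.912 ± 0.891 CPM under Control (SD, n = 11) and 2.99 ± 1.98 CPM under Tyrphostin (SD, n = 6).

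Since the filter left Wnt4 untested, an exact two-sided permutation test of log2(CPM + 1) within batches was added after the counts had been seen. The mean within-batch difference was 1.02, with 1 in batch 1 and 1.04 in batch 2 (exact permutation p = 0.000425 over 4704 arrangements, not adjusted). The arrangements move single libraries and ignore the Control sets, so this p is too small if libraries of a set are not independent. With no filter on low counts, where 21622 genes were tested, edgeR gave a log2 ratio of 1.70 ± 0.46 (SE; adjusted p = 0.0132), and with a filter of 1 CPM in 6 libraries 1.68 ± 0.44 (SE; adjusted p = 0.0169). With the Control libraries summed by set Wnt4 was tested and had 1.66 ± 0.42 (SE, edgeR adjusted p = 0.0227). Tyrphostin 6 and Tyrphostin 5, the highest libraries for Wnt4, also had the highest sums of surface epithelium markers, 10.3 and 6.74 CPM, and of oocyte markers, 194 and 84.6 CPM; the part of these in the Wnt4 values was not tested. Within batch 2 alone, where it passed the filter, its log2 fold change was 1.39 ± 0.58 (SE, adjusted p = 0.392 by edgeR). The filter asks for enough counts in as many libraries as the smaller group holds. With the sets summed and in batch 2 alone, Tyrphostin libraries were enough to meet it. Wnt4 thus entered these fits through the group where it was high, and they add no support of their own.

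Wnt5a (ENSMUSG00000021994; chromosome 14, 28504750 to 28527448, plus strand), a ligand known mostly for signalling without beta-catenin, overlaps the exons of Gm2670 on the opposite strand, so reads of the pair cannot be told apart without strand. It ran from 1.09 to 7.28 CPM in Control, with a median of 2.99, and from 1.17 to 6.2 CPM in Tyrphostin libraries, with a median of 2.92. The groups overlapped fully, and the log2 fold change was -0.24 ± 0.34 (SE; adjusted p = 0.736 by edgeR), with a 95% interval of -0.94 to 0.47. The values within batches pointed apart, at -0.83 ± 0.51 in batch 1 and 0.27 ± 0.43 in batch 2 (SE), and the interaction between treatment and batch did not pass the threshold (edgeR, unadjusted p = 0.106).

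Of the receptors, Fzd4 (ENSMUSG00000049791; chromosome 7, 89404355 to 89413134, plus strand), a frizzled receptor for several WNT ligands and for norrin, rose. In Control libraries it ran from 1.35 to 5.93 CPM, with a median of 4.03. The Tyrphostin libraries of batch 1 held 12.1, 5.28 and 13.5 CPM and those of batch 2 held 24.6, 4.58 and 5.41 CPM. Tyrphostin 1, 3 and 4 stood above every Control library, and the other 3 lay at the upper end of the Control range. The means were 3.9 CPM ± 1.29 (SD, n = 11) and 10.9 CPM ± 7.69 (SD, n = 6), a log2 ratio of 1.46 ± 0.32 (SE; adjusted p = 0.00384 by edgeR), or 2.76-fold.

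The size of the Fzd4 difference rested in part on single libraries. Without Tyrphostin 4 the log2 fold change was 1.02 (edgeR adjusted p = 0.0378), and over all 17 fits that left out a library it ran up to 1.64 with every adjusted p under 0.05. Without Control 7, Control 8 and Tyrphostin 5 it was 1.63 (edgeR adjusted p = 0.00239). The value was 1.51 ± 0.39 in batch 1 (SE; adjusted p = 0.0241 by edgeR) and 1.42 ± 0.49 in batch 2 (SE; adjusted p = 0.271 by edgeR). The interaction was -0.08 ± 0.66 (SE; edgeR unadjusted p = 0.903). Without Tyrphostin 4 it was -1.3 (edgeR unadjusted p = 0.041), so the closeness of the batch values rested on that library. Over the other omissions it ran from -0.398 to 0.281. The other Tyrphostin libraries of batch 2 held 4.58 and 5.41 CPM, against 3.47 to 5.12 CPM in Control. The batch 1 call was lost without Tyrphostin 1 or without Tyrphostin 3.

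The genes whose pattern over the 17 libraries was most like that of Fzd4, after each batch mean was subtracted, were Phf3 (Pearson r = 0.848) and Pde10a (r = 0.845), the second of them a cyclic nucleotide phosphodiesterase. These libraries share batches, depth and treatment, so the values are a description. Pde10a had a log2 ratio of 0.54 (edgeR adjusted p = 0.0403) and Phf3 of 0.39 (edgeR adjusted p = 0.127).

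Because Fzd4 was the only one of the 8 genes called, the stretch before its start is printed. The RefSeq promoter table (GRCm38.p6) matched 6 of the 8 genes; Wnt5a and Sfrp4 had no entry. Windows of 250 bases before to 50 after a start were searched on both strands for the TCF and LEF core as CTTTGAT or CTTTGAA, the cyclic AMP element TGACGTCA, its core TGACG, which the full element contains, and the AP-1 element TGANTCA. Of all 32851 windows, 3.73%, 5.14%, 1.79%, 20.8% and 7.81% held these. Among the 6 genes only Ctnnb1 held any of them, the core TGACG. The sequence lies at chr7:89404116-89404354 on the plus strand, with bases inside the annotated gene left out and no capitals because it held no match.
Fzd4: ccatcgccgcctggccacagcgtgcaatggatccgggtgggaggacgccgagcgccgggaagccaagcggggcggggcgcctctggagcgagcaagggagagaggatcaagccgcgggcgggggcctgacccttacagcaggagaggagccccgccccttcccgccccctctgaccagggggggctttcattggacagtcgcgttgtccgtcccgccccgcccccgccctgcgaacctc

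Fzd1 (ENSMUSG00000044674; chromosome 5, 4753839 to 4758035, minus strand), a frizzled receptor encoded by 1 exon, ran from 4.48 to 19.5 CPM in Control, with a median of 7.62, and from 3.3 to 11.6 CPM in Tyrphostin libraries, with a median of 6.47. Its log2 fold change was -0.41 ± 0.27 (SE; adjusted p = 0.387 by edgeR), with a 95% interval of -0.98 to 0.15. Within batch 1 the groups had close means, 6.03 CPM ± 1.45 (SD, n = 6) and 6.31 CPM ± 3.27 (SD, n = 3). In batch 2 Control libraries held 13.4, 19.5, 15.2, 18.8 and 7.68 CPM against 5.49, 11.6 and 7.09 CPM in Tyrphostin libraries, a log2 ratio of -0.91 ± 0.36 (SE; adjusted p = 0.365 by edgeR). There, Tyrphostin 4 and 6 were below every Control library. The interaction had the lowest p of the members (log2 difference -1 ± 0.51, SE; edgeR unadjusted p = 0.064), which does not pass the threshold.

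Lgr4 (ENSMUSG00000050199; chromosome 2, 109917647 to 110014257, plus strand), the R-spondin receptor, showed no difference that could be told from 0. It ran from 5.51 to 45.2 CPM in Control and from 9.37 to 39.8 CPM in Tyrphostin libraries, and its log2 ratio of -0.02 ± 0.28 (SE; adjusted p = 0.979 by edgeR) had a 95% interval of -0.6 to 0.56 and changed sign with total-count scaling, at 0.11. Within batches the values were -0.06 ± 0.28 and 0.02 ± 0.5 (SE). Control 7, at 5.51 CPM, was below the other Control libraries of batch 2, at 24.4, 45.2, 38.5 and 44.2 CPM.

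The secreted inhibitor Sfrp4 (ENSMUSG00000021319; chromosome 13, 19623104 to 19632994, plus strand) had the largest negative value of the 8 genes, without passing the threshold. In batch 1 Control libraries ran from 2626 to 14374 CPM, with a median of 5426, and the Tyrphostin libraries held 2024, 2840 and 63.6 CPM. In batch 2 Control libraries held 11768, 6427, 8228, 5926 and 4944 CPM, and Tyrphostin libraries 5008, 3419 and 2781 CPM. In each batch 2 of the 3 Tyrphostin libraries lay under the whole Control range. The log2 fold change was -1.50 ± 0.56 (SE; edgeR unadjusted p = 0.0153, adjusted p = 0.101), with a 95% interval of -2.68 to -0.33.

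Whether Sfrp4 was called depended on 1 library and on the tool. Tyrphostin 3 held 326 counts of Sfrp4, where the other libraries held at least 8787, and Sfrp4 ranked 1519th by CPM in it against 11th to 81st elsewhere. Without Tyrphostin 3 the change was smaller and passed the threshold, at -1.19 (edgeR adjusted p = 0.0259). DESeq2 and limma-voom called it with all libraries, at -1.51 (DESeq2 adjusted p = 0.0345) and -2.04 (limma-voom adjusted p = 0.0287). Among the 1148 genes with a mean of at least 100 CPM, Sfrp4 had the widest gap between Tyrphostin 3 and the lowest other library, 31.8-fold. The next gene was Cyp11a1, which encodes the enzyme that starts steroid synthesis from cholesterol, with a gap of 2.59 on the log2 scale against 4.99 for Sfrp4. Theca and stroma markers summed to 275 CPM in Tyrphostin 3, at the low end of the Control range of 269 to 2160 CPM. The part of these cells in the Sfrp4 value was not tested.

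Ctnnb1 (ENSMUSG00000006932; chromosome 9, 120929216 to 120960507, plus strand), whose protein beta-catenin carries the canonical signal, shares exon positions with Ulk4 on the opposite strand and with the microRNA gene Mir7090. It varied least of the 5 most abundant genes, with 2.49-fold between the highest and the lowest library. It averaged 90.8 ± 23.3 CPM under Control (SD, n = 11) and 116 ± 34.8 CPM under Tyrphostin (SD, n = 6), a log2 ratio of 0.36 ± 0.18 (SE; adjusted p = 0.21 by edgeR) with a 95% interval of -0.00015 to 0.73. In batch 1 the Tyrphostin libraries held 69.3, 159 and 109 CPM against 64 to 88.1 CPM in Control, and 2 of 3 were above every Control library. In batch 2 they held 112, 92.4 and 153 CPM against 77.2 to 127 CPM, and 1 of 3 was.

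Axin2 (ENSMUSG00000000142; chromosome 11, 108920349 to 108950783, plus strand), a direct target of beta-catenin often read as a measure of pathway output, held 1 to 16 counts per library. It overlaps Gm11670 on the opposite strand. In batch 1 Control libraries ran from 1.89 to 4.64 CPM, and Tyrphostin libraries held 1.43, 1.86 and 2.93 CPM, so that 2 of 3 were below every Control library. In batch 2 the ranges were 0.434 to 2.3 CPM and 0.187 to 2.16 CPM, and only Tyrphostin 6 lay below. It averaged 2.17 ± 1.4 CPM under Control (SD, n = 11) and 1.59 ± 0.956 CPM under Tyrphostin (SD, n = 6), with a log2 ratio of -0.40 ± 0.41 (SE; adjusted p = 0.613 by edgeR). The 95% interval, -1.24 to 0.44, spans losses and gains.

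**Figure D2:**
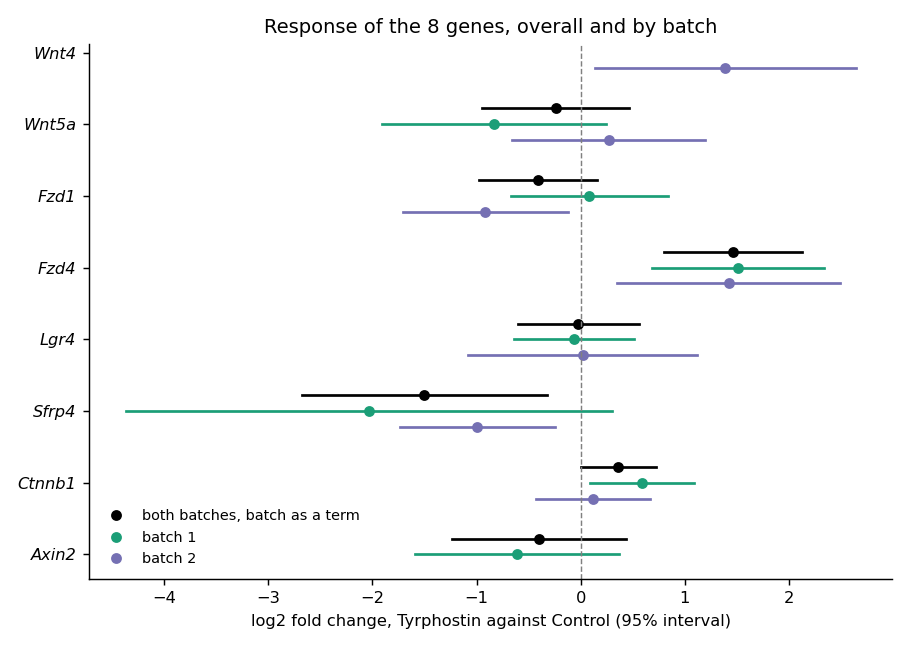
Log2 fold change of the 8 genes with its 95% interval, Tyrphostin against Control, with batch as a term (black), within batch 1 (green) and within batch 2 (violet). Fzd4 lies to the right of 0 in all 3 fits, at 1.46, 1.51 and 1.42, and its interaction between treatment and batch was -1.3 without Tyrphostin 4. Wnt4 passed the filter in batch 2 alone and Axin2 did not pass it there.

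Each batch was also tested alone. In batch 1, 1 of 7 members tested was called (Fzd4), where 6.73% of all genes were, and Ctnnb1 had the only other unadjusted p under 0.05 (0.0225), as 21.2% of all genes had. Without Tyrphostin 1 the 1 member called in batch 1 was Ctnnb1 in place of Fzd4, and without Tyrphostin 3 there was none. In batch 2, 0 of 7 were called by edgeR, where 0.621% of all genes were. An unadjusted p under 0.05 was found for 4 (Sfrp4, Fzd4, Fzd1 and Wnt4), as for 10.7% of all genes, and DESeq2 called 0. Wnt4 passed the filter there through its Tyrphostin libraries, where it was high. The 61 genes called in batch 2 depended on single libraries: the count was 221 without Control 7 and 11 without Tyrphostin 6, with 0 members in either. For the interaction, edgeR called 0 of 7 members, as it did 0% of all genes. In that fit 0 members had an unadjusted p under 0.05, where 3.56% of all genes did, and DESeq2 called 0. With no filter on low counts edgeR called 79 genes, 0 of them members, and Fzd1 had an unadjusted p of 0.0351. Some omissions of a library brought an unadjusted p under 0.05 by edgeR, with 0 members called. This held for Fzd1 without Control 11 (0.0276), Tyrphostin 1 (0.0168) or Tyrphostin 5 (0.0243), and for Wnt5a without Control 10 (0.0268). It also held for Fzd4 without Tyrphostin 4 (0.041) and Ctnnb1 without Tyrphostin 1 (0.0457).

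The rest of the pathway was taken from a list of 94 WNT genes in 8 role groups. Of the 86 that are not among the 8 genes, 41 were tested: 5 were called lower and 0 higher, where 6.25% and 4.35% of all genes were. An unadjusted p under 0.05 was found for 8 of the 41, against 23.7% of all genes. DESeq2 called 7, Fzd3 higher and Csnk1a1 lower in addition, against 13.7% of all genes. Their median log2 fold change was -0.13, with 16 positive and 25 negative values. The 5 were Sfrp2, Wnt2, Wnt11, Lrp6 and Tcf7l2, and they stayed called in each of the 17 fits that left out a library and without Control 7, Control 8 and Tyrphostin 5. For Sfrp2, Wnt2, Wnt11 and Tcf7l2, every Tyrphostin library was below every Control library of its own batch, as it was for 2.21% of all genes tested.

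Sfrp2, a secreted inhibitor of the same family as Sfrp4, fell most. Its exons overlap Gm26771 on the opposite strand. In batch 1 it ran from 41.2 to 126 CPM in Control, with a median of 60, and held 6.46, 11.3 and 8.78 CPM in Tyrphostin libraries. In batch 2 it held 11.3, 20.2, 20.4, 18 and 16.7 CPM in Control and 4.53, 5.66 and 1.68 CPM in Tyrphostin libraries. The log2 fold change was -2.58 ± 0.28 (SE; adjusted p = 2.3e-06 by edgeR), about 0.167 of the Control level, and it was called in both batches.

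The ligands Wnt2 and Wnt11 also fell. Wnt2, a ligand of the canonical branch, averaged 17 ± 7.41 CPM under Control (SD, n = 11) and 5 ± 2.77 CPM under Tyrphostin (SD, n = 6), a log2 ratio of -1.79 ± 0.27 (SE; adjusted p = 9.91e-05 by edgeR), and was called in both batches. In batch 2 its Tyrphostin libraries held 3.84, 2.96 and 1.49 CPM against 7.86 to 17.5 CPM in Control. Wnt11, a ligand known for the non-canonical branch, averaged 6.42 CPM ± 4.41 (SD, n = 11) and 2 CPM ± 2.01 (SD, n = 6), a log2 ratio of -1.79 ± 0.35 (SE; adjusted p = 0.00156 by edgeR). Its Tyrphostin libraries of batch 2 held 4, 2 and 1 counts. Wnt11 overlaps Gm8398 on the opposite strand. Wnt11 was not called without the batch term (edgeR adjusted p = 0.0892).

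Lrp6, the co-receptor of the canonical branch, averaged 44.7 ± 17.5 CPM under Control (SD, n = 11) and 22.4 ± 6.37 CPM under Tyrphostin (SD, n = 6), a log2 ratio of -0.91 ± 0.21 (SE; adjusted p = 0.00545 by edgeR). All 3 Tyrphostin libraries were below every Control library in batch 1, and 1 of 3 in batch 2. Tcf7l2, a TCF factor that pairs with beta-catenin, ran from 17.3 to 51.2 CPM in Control and from 10.9 to 16.5 CPM in Tyrphostin libraries, so all 6 were below all 11, as they were for 1% of all genes tested. Its log2 fold change was -0.83 ± 0.2 (SE; adjusted p = 0.00836 by edgeR).

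**Figure D3:**
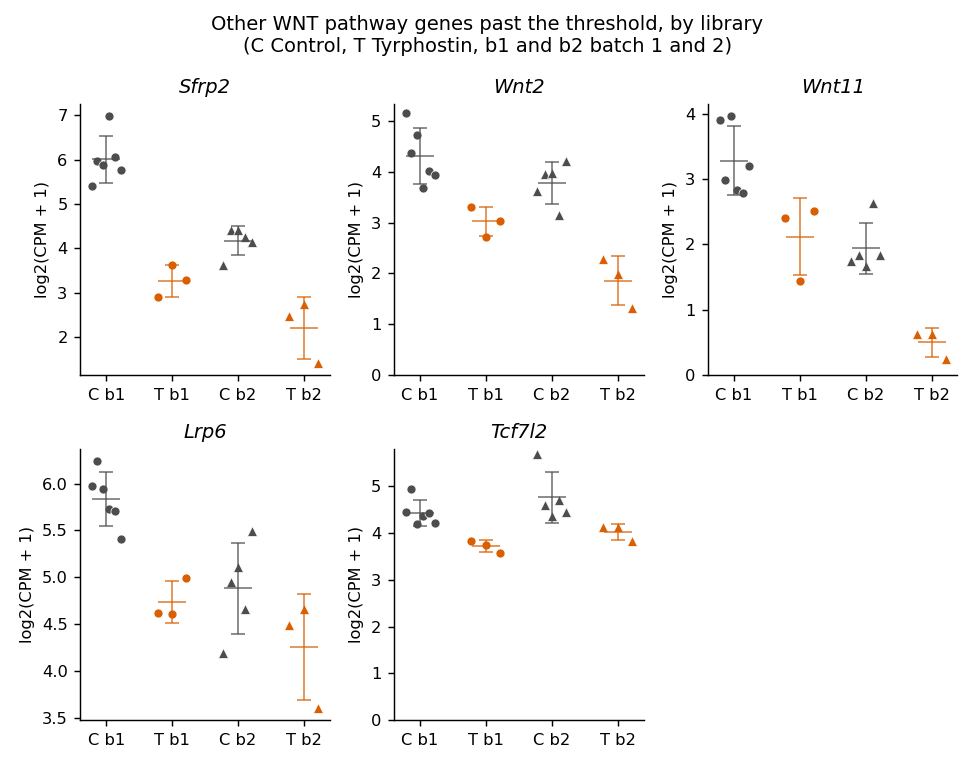
Level of the 5 other pathway genes past the threshold in every library, as log2(CPM + 1) on an axis of its own range, with the same symbols as the plot of the 8 genes and bars at the mean ± SD. The Tyrphostin libraries lie below every Control library of their batch, except for Lrp6 in batch 2, where 1 of 3 does.

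Of the 5 genes, Sfrp2 and Wnt2 held none of the motifs in their windows and Lrp6 had no entry; the starts of the other 2 are printed for the motifs they held. Over the whole pathway list 17 of 87 windows held TGACG, near the 20.8% of all windows. Wnt11 has several annotated starts, and the window at the first is shown: it held CTTTGAT once, read on the opposite strand, and TGACG at 2 places, counting both strands. Tcf7l2 held TGACG once, read on the opposite strand. The shares of all windows with each motif are those given for Fzd4. Capitals mark the matches. The stretches are chr7:98834862-98835111 and chr19:55741560-55741809 on the plus strand of GRCm38.p6 (RefSeq), and a match is a run of letters, not a measured site.
Wnt11: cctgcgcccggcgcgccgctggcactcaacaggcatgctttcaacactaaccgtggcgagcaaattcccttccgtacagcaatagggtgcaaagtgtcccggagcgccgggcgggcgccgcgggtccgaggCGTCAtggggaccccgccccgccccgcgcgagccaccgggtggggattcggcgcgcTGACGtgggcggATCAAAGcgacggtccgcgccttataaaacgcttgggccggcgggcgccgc
Tcf7l2: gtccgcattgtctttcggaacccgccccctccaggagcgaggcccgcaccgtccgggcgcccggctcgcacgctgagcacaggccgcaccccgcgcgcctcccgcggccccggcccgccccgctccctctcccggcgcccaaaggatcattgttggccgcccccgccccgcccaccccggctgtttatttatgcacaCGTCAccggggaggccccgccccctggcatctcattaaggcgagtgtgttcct

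By role, 3 of 19 ligands were tested, of which 2 were called lower (Wnt2 and Wnt11), and the 16 ligands not tested reached at most 34 counts in any library, the 34 being Wnt4 in Tyrphostin 6. Of 15 receptors, 10 were tested, with 1 called higher (Fzd4) and 1 lower (Lrp6). Fzd3, a frizzled receptor of planar polarity, had 48.2 CPM ± 16.8 (SD, n = 11) and 77.6 CPM ± 34.1 (SD, n = 6), a log2 ratio of 0.66 ± 0.22 (SE; adjusted p = 0.0548 by edgeR) just short of the threshold, which it passed in 7 of 12 alternatives, among them the one without Control 7, Control 8 and Tyrphostin 5. In batch 1 all 3 of its Tyrphostin libraries were above every Control library and it was called (edgeR adjusted p = 0.0315). In batch 2 no Tyrphostin library was above the Control range, and the log2 value was 0.37 ± 0.35 (SE; edgeR adjusted p = 0.798). Without Tyrphostin 2 the adjusted p over both batches was 0.194 (edgeR). Lrp5, the other co-receptor, had a log2 ratio of -0.17 ± 0.27 (SE; adjusted p = 0.769 by edgeR). Of the 9 R-spondin axis genes 3 were tested and 0 were called by edgeR and by DESeq2, with 0 at an unadjusted p under 0.05: Lgr4, Znrf3 (-0.20 ± 0.19, SE), the ligase that removes frizzled receptors, and Rspo2 (-0.54 ± 0.51, SE).

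Of 14 inhibitors 5 were tested and Sfrp2 was called. Frzb, another frizzled-related protein, and Kremen1, a receptor of the Dickkopf inhibitors, had log2 fold changes of -0.22 ± 0.3 and -0.34 ± 0.26 (SE). Of the 14 genes of the destruction complex and dishevelled group 12 were tested and 0 were called by edgeR, with 1 at an unadjusted p under 0.05. That gene was Csnk1a1, the kinase that primes beta-catenin for degradation, at -0.57 ± 0.2 (SE; adjusted p = 0.0653 by edgeR). It passed the threshold in 4 of 12 alternatives, among them DESeq2 (adjusted p = 0.0258). In edgeR it passed with the Control libraries summed by set and without Control 7, Control 8 and Tyrphostin 5. Gsk3b, the second kinase of the complex, had 0.35 ± 0.2 (SE). Of 12 catenin and nuclear partners 8 were tested and Tcf7l2 was called; Tcf7 and Pygo2 had 0.24 ± 0.24 and 0.20 ± 0.27 (SE). Wls, which escorts WNT ligands to the surface and was the single secretion gene tested, had 0.31 ± 0.19 (SE). The planar polarity group had 6 of 9 tested and 0 called by edgeR and by DESeq2, with 0 at an unadjusted p under 0.05, among them Prickle2 (-0.11 ± 0.18, SE) and Daam1 (0.02 ± 0.26, SE). The signs of Prickle2 and Daam1 varied with the processing: Prickle2 was positive with total counts and Daam1 negative without 3 libraries.

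**Figure D4:**
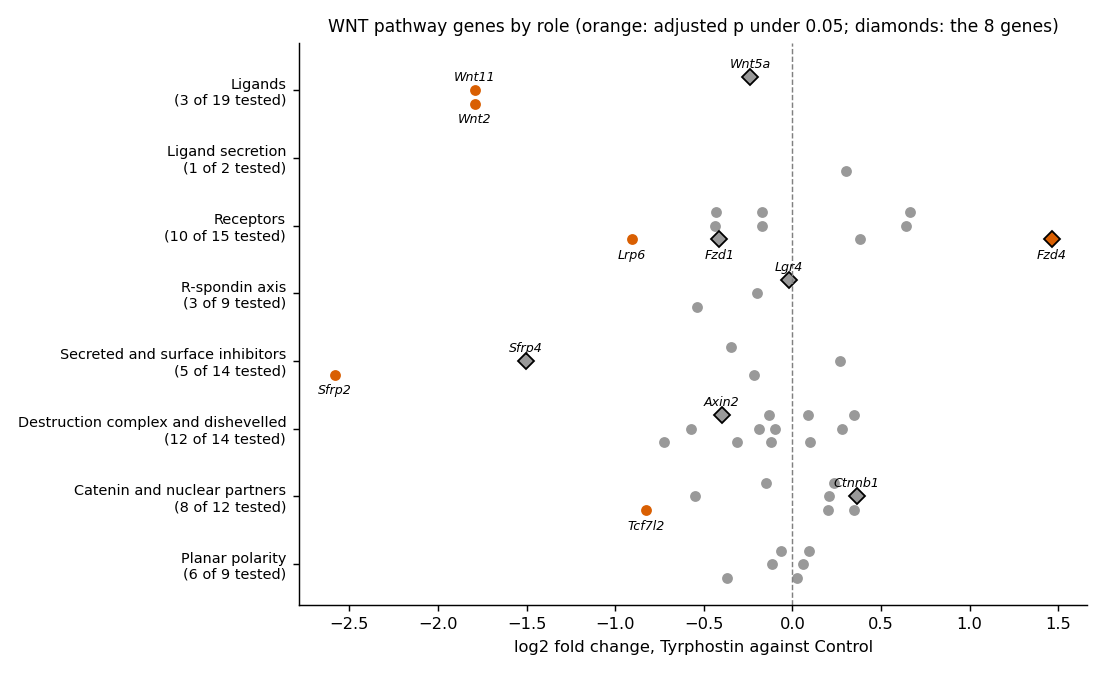
Log2 fold change of the 48 WNT pathway genes tested, Tyrphostin against Control, in rows by role with the number tested of the number listed. Orange marks an adjusted p under 0.05 and diamonds mark the 8 genes; Sfrp2 at -2.58 is the lowest and Fzd4 at 1.46 the highest.

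Some of the 8 genes also differed between the batches. In the same fit, with treatment as a term, 3 of the 7 tested differed between batch 2 and batch 1, where 21.2% of all genes did: Lgr4 was higher in batch 2 by 1.47 ± 0.27 (log2, SE; edgeR adjusted p = 0.000558), Fzd1 higher by 0.96 ± 0.26 (SE; adjusted p = 0.0103 by edgeR) and Axin2 lower, at -1.32 ± 0.39 (SE; adjusted p = 0.0185 by edgeR). Among Control libraries Lgr4 averaged 11.5 CPM ± 2.85 (SD, n = 6) in batch 1 and 31.6 CPM ± 16.8 (SD, n = 5) in batch 2, and Axin2 3.12 CPM ± 1.06 (SD, n = 6) and 1.04 CPM ± 0.738 (SD, n = 5). With total-count scaling Lgr4, Fzd1 and Ctnnb1 were the 3 called, and without Control 7, Control 8 and Tyrphostin 5 Fzd1 was no longer called. With the Control libraries summed by set, Fzd1 and Axin2 were both lost, and Lgr4 and Wnt4 were called.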

How the data were processed

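Per the labels' protocols, lysates went through RNA-SPRI beads and then Smart-Seq2, which copies whole transcripts and carries no molecular identifiers. The authors deposited raw counts per gene symbol for 17 libraries in 1 table. STAR, HTSeq and the build GRCm38 are named per the submitters' processing notes; versions, annotation and strand are not given in the sources used here. Columns were matched by the names in the labels (0 were left unmatched). No 2 libraries were copies: chi-square over degrees of freedom was 11.8 to 84.1 in the 31 pairs that share group and batch.

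The deposited counts went into edgeR 4.0.16 (R 4.3.3) with filterByExpr by treatment and TMM (robust quasi-likelihood F test, batch as a term, Benjamini-Hochberg over 9603 genes, threshold 0.05) and standard errors were derived from the estimate and its F. The code was tested on simulated counts. Alternatives were scaling by RLE, by upper quartile or by total counts, 2 other filters, DESeq2 1.42.0, limma-voom (limma 3.58.1), no batch term, a block on library number, Control libraries summed by set and omission of each library. The test of the batch term, the exact test of Wnt4, the block on set number and the omission of 3 libraries together were added after seeing the data. Gene models and lengths came from GENCODE M21 (GRCm38). The 8 genes, the lists and their rules were chosen with earlier results of these data known. Named beyond the 8 were pathway genes past the threshold (at most 20), the 2 most abundant others tested per role and the 2 genes most like a called member.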

Additional observations from a re-analysis of the deposited data

Results flagged for a closer look

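Each of the 8 genes was searched, in CPM and in log2 CPM, for a library that stood alone among the 6 Control libraries of batch 1, the 5 of batch 2 and the 6 Tyrphostin libraries. That made 48 groups, of which 3 had such a library, and chance gives about 2.4.

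Wnt5a reached 7.28 CPM in Control 10, where the remaining batch 2 Control libraries lay at 2.58 to 3.47 CPM, and was also apart in log2 CPM, at 2.95 against 1.59 to 1.96. Sfrp4 lay at a log2 CPM of 6 in Tyrphostin 3, while the rest of that group lay at 11 to 12.3. In CPM it was not apart by the same measure.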

How the results depend on the processing

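Fzd4 kept its direction in all 12 alternatives and 17 omissions of a library, and was called in 10 of 12, all but the 2 with a replicate block, and 17 of 17. The count of members called, 1 in the main analysis, was 2 with no filter and with the filter of 1 CPM in 6 libraries (Fzd4 and Wnt4), 2 with Control libraries summed by set (the same pair), 2 in DESeq2 and in limma-voom (Fzd4 and Sfrp4), and 0 with the replicate block by library number (1, Sfrp4, with the block by set number). With the sets summed, Wnt4 passed the filter through Tyrphostin libraries, where it was high. The member count ran from 1 to 3 over the omissions, 2 without Tyrphostin 1 and 3 without Tyrphostin 3. Within batch 1 it ran from 0 (without Tyrphostin 3) to 1, the 1 being Ctnnb1 without Tyrphostin 1 and Fzd4 otherwise. The count over all genes, 1018, was 619 without the batch term and 624 with the replicate block by library number, and ran from 708 (without Tyrphostin 1) to 1314 (without Control 7). Pathway calls, 6 in the main analysis, ran from 6 to 8 over the omissions. The Wnt4 difference ran from 0.881 to 1.18 over the omissions, with exact permutation p up to 0.0034.

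Control 1 to 6 and Tyrphostin 1 to 6 share numbers in the labels. Deviations of same-numbered libraries correlated above 0.1 in 2 of 6 pairs, with the highest value, 0.32, for number 1. Of the 6 Tyrphostin libraries, 2 correlated best with their own number. Weak correlation cannot show that such libraries share only a number, so whether they are paired stays unknown. Numbers 4 to 6 join Control libraries of batch 1 to Tyrphostin libraries of batch 2. Since batch is also a term, the treatment value with this block rests on numbers 1 to 3, all of batch 1. It is therefore not a repeat of the comparison over both batches. With the replicate block on these 12 libraries Fzd4 was 1.62 (edgeR adjusted p = 0.113), Tcf7l2 -0.87 (edgeR adjusted p = 0.059), and 0 members differed between batches by edgeR, in place of 3. Pairing instead by the set numbers of the library names, which match in batch, was added after seeing the data: 0 of 5 pairs correlated above 0.1. With that replicate block (5 summed Control sets, 5 Tyrphostin libraries without Tyrphostin 3) 627 genes were called, Fzd4 was 1.19 (edgeR adjusted p = 0.0641), Sfrp4 -1.12 (edgeR adjusted p = 0.00883), Tcf7l2 -0.69 (edgeR adjusted p = 0.0515), Wnt4 1.57 (edgeR adjusted p = 0.0774) and Pygo2 -0.11.

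Values near 0 changed sign. Lgr4, -0.02 in the main analysis, was 0.0087 with upper-quartile scaling, 0.11 with total counts, 0.014 with no filter, 0.15 in limma-voom and 0.052 without the batch term, and ran from -0.16 to 0.056 over the omissions. Prickle2 was 0.023 with total counts. With the replicate block by library number, whose treatment value rests on batch 1, Fzd1 was 0.32, Wls -0.073, Frzb 0.032 and Daam1 -0.76. Daam1 was -0.14 without Control 7, Control 8 and Tyrphostin 5 and ran from -0.14 to 0.15 over the omissions, and Pygo2 from -0.052 to 0.36. The cause was not tested for any of these. The block and the omissions also hold fewer libraries than the main fit. Wnt4 and Axin2 had at most 34 and 16 counts in a library.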
